A study of Mus musculus with 2 samples.

Results

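The genes described here are 9 Toll-like receptors, *Tlr1*, *Tlr2*, *Tlr3*, *Tlr4*, *Tlr6*, *Tlr7*, *Tlr8*, *Tlr9* and *Tlr13*, and their adaptor *Myd88*. They were taken by symbol, when earlier results of these data were already known. They are 10 of the 32524 genes in the count tables of 2 single-cell RNA sequencing libraries from synovial CD45+CD11b+ cells of the mouse. Both libraries came from wild-type C57BL/6 mice with arthritis, sorted at day 17 after induction. One group of mice had received β-glucan 7 days before induction and the other group had received PBS, and nothing else in the labels sets the groups apart. The treatment text of the samples describes arthritis by monoclonal antibodies and lipopolysaccharide, whereas the series' design text and the methods give transfer of K/BxN serum for this experiment. Cells of several mice were pooled into 1 library per group with no map from cell to mouse, and the labels give no age. With no replicates, differences between the libraries carry no p-value. The intervals printed are exact, at 95% (Poisson for levels, Clopper-Pearson for shares and for ratios), and cover counting error only.

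Toll-like receptors are pattern-recognition receptors of innate immunity. Those of the cell surface bind lipoproteins and lipopolysaccharide of microbes, and those of endosomes bind nucleic acids. All of them except *Tlr3* signal through the adaptor encoded by *Myd88*, which recruits kinases of the IRAK family and leads to activation of NF-κB. In synovial macrophages these receptors are known as sensors of microbial products and of debris from damaged tissue.

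The β-glucan library held 81611849 unique molecular identifiers (UMIs, each standing for 1 captured transcript) and the PBS library held 73874602. A barcode was kept if it had 500 or more genes and mitochondrial UMIs made up no more than 10%, which left 5696 and 4553 cells (79.2% and 79.0%) with a median of 12457.5 and 14475 UMIs. Of all barcode sequences, 7 occurred in both libraries, and 2 of these were kept in both. The 10249 cells fell into 18 clusters when the 10 genes and the pathway genes were left out of the principal components. Clusters are called here by their leading gene. The main myeloid compartment comprised 9 clusters with 8294 cells (4618 with β-glucan and 3676 with PBS), and all 10 macrophage markers were each found in at least 25% of its cells. Of its macrophage-like clusters, those led by *Ednrb*, *Spp1*, *Vsig4*, *Fxyd2* and *Ldlrad3* had no macrophage marker among their 10 leading genes. The leading genes included the monocyte marker *Vcan* in the *Vsig4* cluster and the monocyte marker *Ccr2* in the *H2-Aa* cluster. The compartment was therefore compared as a whole and by cluster. Neutrophil-like, B cell-like, T cell or natural killer-like, basophil/mast-like, stromal-like, endothelial-like and proliferating-like clusters lay outside it. In the proliferating-like cluster all 10 macrophage markers were also each found in at least 25% of cells.

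All 10 genes had UMIs in both libraries. Their positions are given on GRCm39, the build of the count tables. *Tlr1* (chr5:65082022-65090941) and *Tlr6* (chr5:65108704-65203497) are neighbours on the minus strand, as are *Tlr8* (chrX:166024184-166047325) and *Tlr7* (chrX:166086758-166113605). *Tlr13* lies at chrX:105186810-105204533, *Tlr2* at chr3:83743576-83749074, *Tlr3* at chr8:45848702-45864117, *Tlr4* at chr4:66745783-66849936, *Tlr9* at chr9:106099797-106104082 and *Myd88* at chr9:119165000-119170486. *Tlr1* and *Tlr6* are close paralogs: 13.1% of the 50-base stretches in annotated *Tlr1* transcripts also occurred in *Tlr6* transcripts and 9.31% the other way. A read that lies wholly within shared sequence matches both genes. How many reads did so was not tested. No other pair of the 10 genes shared such a stretch. Values are CPM, the UMIs of a gene per 1000000 UMIs, after summing the cells of a cluster, and they are compared between clusters and libraries within a gene, not between genes.

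**Figure D1:**
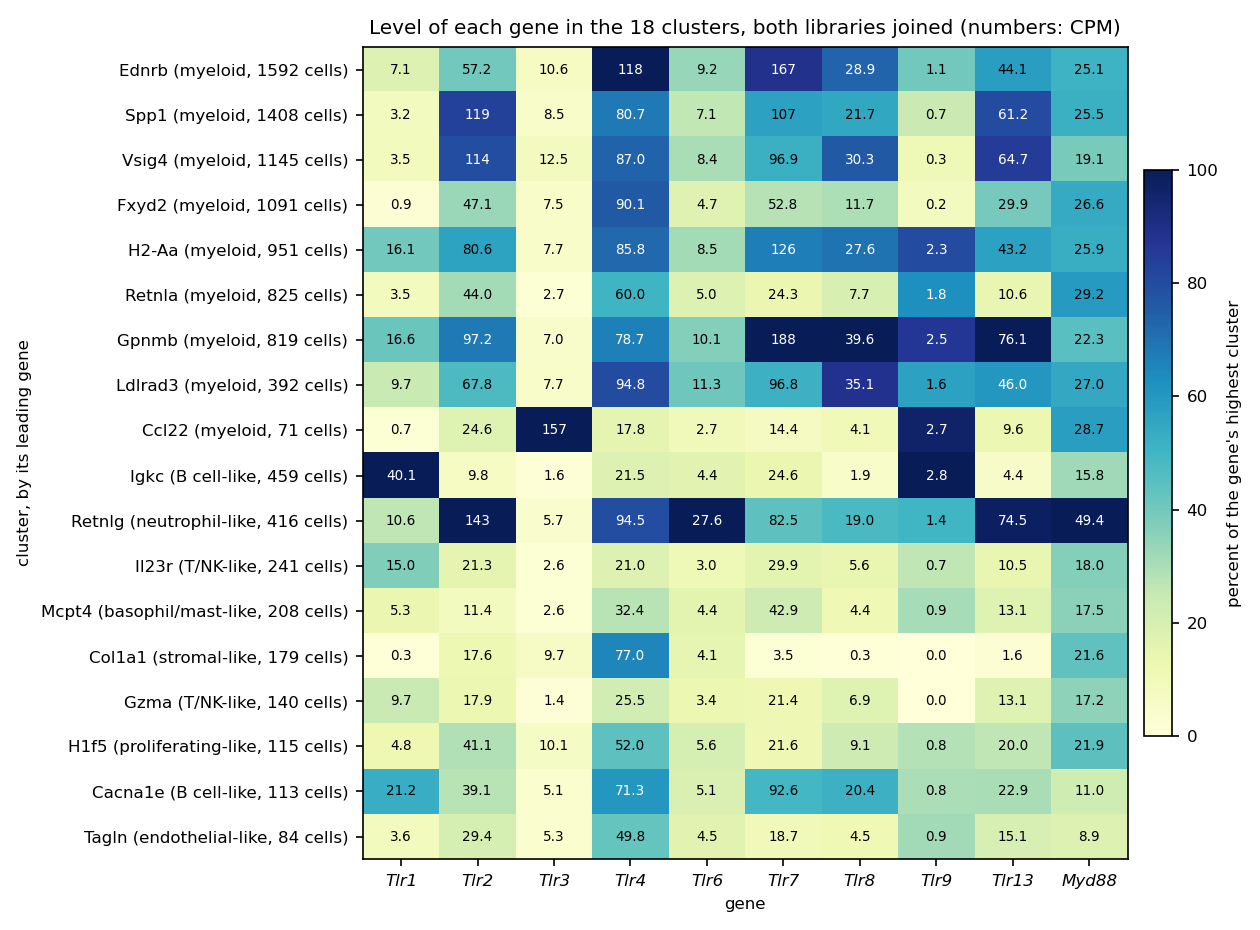
Level of each gene (columns) in the 18 clusters (rows, named by their leading gene with class and number of cells), with the CPM of both libraries joined printed in each field and the colour giving the percent of that gene's highest cluster. *Tlr3* stands out in the *Ccl22* cluster (157 CPM) and *Tlr1* in the *Igkc* cluster (40.1 CPM). *Tlr7*, *Tlr8* and *Tlr13* are highest in the *Gpnmb* cluster, and *Tlr2*, *Tlr6* and *Myd88* in the neutrophil-like cluster led by *Retnlg*. *Tlr13* has 76.1 CPM in the *Gpnmb* cluster and 74.5 CPM in the neutrophil-like cluster.

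Among the receptors of the cell surface, *Tlr4*, the receptor for lipopolysaccharide, was found in every cluster. Its level ran from 118 CPM in the *Ednrb* cluster, the highest, to 59.97 CPM in the *Retnla* cluster and 17.8 CPM in the *Ccl22* cluster. From the *Ldlrad3* cluster at 94.8 CPM, next below *Ednrb*, down to the B cell-like cluster led by *Cacna1e* at 71.3 CPM, each cluster's interval overlapped that of its neighbour in the order. The stromal-like cluster had 77.01 CPM, with 76.9 CPM (95% interval 65.4 to 89.9) for β-glucan and 77.1 CPM (64.3 to 91.8) for PBS. Stromal-like cells thus carried *Tlr4* at 89.6% of the compartment's level of 85.9 CPM, while the 10 macrophage markers were there at 2.88% to 21.0% of theirs.

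*Tlr2*, which binds bacterial lipoproteins as a dimer with the product of *Tlr1* or *Tlr6*, was highest in the neutrophil-like cluster at 143 CPM (135 for β-glucan and 161 for PBS). Within the compartment it was highest in the *Spp1* cluster, with 119 CPM in each library, and in the *Vsig4* cluster (110 and 119 CPM), whose intervals overlapped. Among the compartment's clusters with at least 100 cells per library it was lowest in the *Retnla* cluster (45.6 and 43.2 CPM) and the *Fxyd2* cluster (44.9 and 49.2 CPM), whose intervals overlapped.

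The partners of *Tlr2* differed from each other in where they were high. *Tlr6* had 27.6 CPM (22.3 to 33.8) with β-glucan and 27.5 CPM (19.6 to 37.4) with PBS in neutrophil-like cells. In every other cluster both libraries together gave at most 11.3 CPM, and the neutrophil-like interval overlapped no other cluster's. *Tlr1* was instead highest in the B cell-like cluster led by *Igkc*, with 44.6 CPM (35.0 to 56.0) with β-glucan and 35.2 CPM (26.3 to 46.0) with PBS. The other B cell-like cluster, led by *Cacna1e*, followed at 21.2 CPM, and its interval overlapped those of the *Gpnmb* cluster (16.6 CPM), the *H2-Aa* cluster (16.1 CPM) and the *Il23r* cluster of T cells or natural killer cells (15.0 CPM). The *Fxyd2* cluster had 0.91 CPM and the stromal-like cluster 0.27 CPM from 1 UMI. In cells thinned to 5000 UMIs each, *Tlr1* was detected in 19.5% of 339 *Igkc* cells (median depth before thinning 5716 UMIs) and in 3.07% of 7632 compartment cells (14040.5 UMIs), against 0 of 178 stromal-like cells (19648 UMIs, upper bound 2.05%). Without thinning these shares were 23.1%, 7.55% and 0.56%.

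Of the receptors of endosomes, *Tlr7* and *Tlr8*, which sense single-stranded RNA, and *Tlr13*, which senses bacterial ribosomal RNA, had like patterns over the clusters. *Tlr7* was highest in the *Gpnmb* cluster, at 187 CPM with β-glucan and 189 CPM with PBS. The *Ednrb* cluster (167 CPM over both libraries), the *H2-Aa* cluster (126 CPM), the *Spp1* cluster (107 CPM) and the *Vsig4* cluster (96.9 CPM) followed, each with an interval below that of the cluster before it. The *Retnla* cluster had 29.1 and 21.8 CPM in the 2 libraries, and the stromal-like cluster 2.43 and 4.86 CPM. In *Gpnmb* cells 58.0% had a *Tlr7* UMI after thinning, against 1.69% of stromal-like cells, and 82.5% against 4.47% without thinning.

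*Tlr8* and *Tlr13* were also highest in the *Gpnmb* cluster over both libraries. For *Tlr8* this was 36.6 CPM with β-glucan, where the *Ldlrad3* cluster had 38.3 CPM, and 43.4 CPM with PBS. Down to the *H2-Aa* cluster at 27.6 CPM each cluster's interval for *Tlr8* overlapped that of the one before it. For *Tlr13* it was 79.3 and 72.0 CPM, and the next cluster of the compartment, *Vsig4*, had 69.9 and 58.0 CPM. Outside the compartment, neutrophil-like cells had 70.3 and 84.4 CPM of *Tlr13*, which in the PBS library was above the *Gpnmb* cluster. Over both libraries they had 74.5 CPM (67.1 to 82.6) against 76.1 CPM (71.1 to 81.3) in the *Gpnmb* cluster, and the intervals overlapped. Both genes were lowest in the *Retnla* cluster among the clusters of the compartment with at least 100 cells per library, at 7.98 and 7.53 CPM for *Tlr8* and 12.9 and 9.45 CPM for *Tlr13*. Over the 18 clusters, the log2(CPM + 1) of *Tlr8* and *Tlr13* correlated at Pearson r = 0.95, that of *Tlr7* and *Tlr8* at r = 0.93 and that of *Tlr7* and *Tlr13* at r = 0.90. These correlations are descriptions, since all clusters come from the same libraries and differ in depth and in their content of macrophage transcripts.

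The promoters of *Tlr8* and *Tlr13*, the pair most alike over the clusters, and of *Tlr3*, whose highest cluster is another one, are shown so that the letters beside their starts can be compared. They are taken from RefSeq on GRCm38.p6, from 250 bases before to 50 bases after the annotated start, and 8 of the 10 genes were in that table (*Tlr4* and *Tlr7* were not). Capitals mark matches, on either strand, to 4 motifs picked after their matches had been looked at: the PU box GAGGAA, the C/EBP motif TTNNGCAA, the interferon-stimulated response element and the NF-κB motif. None of the marked matches in these 3 sequences overlaps another.
Tlr8, chrX:167264280-167264579, minus strand: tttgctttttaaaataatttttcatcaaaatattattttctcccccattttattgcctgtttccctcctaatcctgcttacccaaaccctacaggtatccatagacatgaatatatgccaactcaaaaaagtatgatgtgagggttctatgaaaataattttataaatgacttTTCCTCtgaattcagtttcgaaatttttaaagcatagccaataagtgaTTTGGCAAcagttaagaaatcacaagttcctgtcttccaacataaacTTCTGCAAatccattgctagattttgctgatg
Tlr13, chrX:106143025-106143324, plus strand: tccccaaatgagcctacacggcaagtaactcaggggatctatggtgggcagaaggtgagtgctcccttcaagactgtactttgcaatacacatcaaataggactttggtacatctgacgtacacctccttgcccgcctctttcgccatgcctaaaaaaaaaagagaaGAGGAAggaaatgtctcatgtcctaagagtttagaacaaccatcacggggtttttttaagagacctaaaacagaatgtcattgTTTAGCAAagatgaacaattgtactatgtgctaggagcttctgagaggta
Tlr3, chr8:45410331-45410630, minus strand: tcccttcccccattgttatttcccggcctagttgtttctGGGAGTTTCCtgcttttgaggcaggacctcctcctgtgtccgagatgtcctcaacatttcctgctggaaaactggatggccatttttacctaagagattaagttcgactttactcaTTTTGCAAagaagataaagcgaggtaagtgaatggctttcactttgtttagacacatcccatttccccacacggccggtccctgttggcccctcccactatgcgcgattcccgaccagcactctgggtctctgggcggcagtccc
*Tlr8* and *Tlr13* each held 1 PU box, as did 1 of the 2 promoters of *Tlr1*, and *Tlr9* held 2. This motif was found in 28.3% of the 32851 promoters of the table. *Tlr8* held 2 matches to the C/EBP motif, and *Tlr13*, *Tlr3* and 1 of the 2 promoters of *Tlr6* held 1 each, against 10.8% of all promoters. *Tlr2* held none of the 4 motifs. Only *Tlr3* of the 8 genes held the NF-κB motif, which occurs in 0.411% of all promoters, and only *Myd88* (1) and *Tlr6* (2 that overlap) held the interferon-stimulated response element, found in 3.44%. A match is a description of letters and not of a bound site.

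*Tlr3*, the receptor for double-stranded RNA, had 1 cluster far above all others. The *Ccl22* cluster, which was also led by *Clec9a* and *Xcr1*, genes known from conventional dendritic cells that cross-present antigen, had 186 CPM (156 to 220) with β-glucan and 128 CPM (103 to 157) with PBS. No other cluster exceeded 12.5 CPM over both libraries. This cluster held 40 and 31 cells of the 2 libraries, which is under the minimum of 100 cells set for a comparison between them. A *Tlr3* UMI was found in 43 of its 71 cells (60.6%), and after thinning in 43.7% against 4.23% of compartment cells, 0.88% of *Igkc* cells and 4.49% of stromal-like cells. The same cluster held *Tlr7* at 13.9% and *Tlr8* at 17.9% of the compartment's level, where the macrophage markers were at 5.89% to 15.7%.

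*Tlr9*, the receptor for unmethylated CpG DNA, was near the limit of detection in every cluster. Its highest level was 2.84 CPM in the *Igkc* cluster, from 9 UMIs, and the intervals of the *Ccl22*, *Gpnmb* and *H2-Aa* clusters overlapped it. In the whole compartment 69 of its UMIs came from the β-glucan library and 80 from the other. In stromal-like cells it had 0 of 3700918 UMIs, with an upper bound of 0.997 CPM. Most differences in *Tlr9* between clusters were therefore not detectable at this depth. The *Spp1* cluster (0.68 CPM), the *Vsig4* cluster (0.30 CPM) and the *Fxyd2* cluster (0.23 CPM) had intervals below that of the *Igkc* cluster.

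*Myd88*, the adaptor, was found in every cluster. Neutrophil-like cells had the highest level, with 43.6 CPM (36.9 to 51.2) and 63.2 CPM (50.9 to 77.5) in the β-glucan and PBS libraries. All 9 clusters of the compartment lay between 19.1 CPM (*Vsig4*) and 29.2 CPM (*Retnla*) over both libraries. The *Retnla* cluster, the lowest of the compartment's 8 larger clusters for *Tlr3*, *Tlr4*, *Tlr7*, *Tlr8* and *Tlr13* in both libraries, was the highest of them for the adaptor over both libraries. Its interval overlapped those of the next clusters, and in the PBS library alone the *Fxyd2* cluster was higher (28.2 against 27.0 CPM).

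Macrophage transcripts were also found in the clusters outside the compartment, and their levels are given beside those of the receptors. The 10 macrophage markers summed to 11832 CPM in neutrophil-like, 4240 CPM in B cell-like and 3901 CPM in T cell or natural killer-like cells, against 16933 CPM in the compartment and 1699 CPM in stromal-like cells. In neutrophil-like cells they were at 54.1% to 93.2% of the compartment's level, with a sum of 13864 CPM with β-glucan and 7034 CPM with PBS. The levels were therefore repeated in cells in which at most 0.5% of the UMIs came from these 10 markers, a limit set after the first values had been seen. It kept 277 of 416 neutrophil-like, 520 of 572 B cell-like, 334 of 381 T cell or natural killer-like and 157 of 179 stromal-like cells. Of the neutrophil-like cells, 128 of 244 were kept in the β-glucan library and 149 of 172 in the PBS library. Their joined levels before and after the limit therefore rest on different mixes of the libraries.

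In the neutrophil-like cells that remained, *Tlr7* was at 13.5 CPM (8.56 to 20.3) instead of 82.5 CPM and *Tlr8* at 7.04 CPM instead of 19.0 CPM. *Tlr2*, *Tlr6*, *Tlr13* and *Myd88* were higher than before, at 189 CPM (169 to 211), 41.7 CPM (32.5 to 52.6), 94.5 CPM (80.4 to 110) and 64.5 CPM (53.1 to 77.8), and *Tlr4* was at 104.5 CPM. In these cells *Tlr13* was thus above the compartment's 45.2 CPM and *Tlr7* below its 103 CPM. *Tlr3* had 2 UMIs there (1.17 CPM, against 5.72 CPM in all neutrophil-like cells).

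Among B cell-like cells the limit left *Tlr1* at 38.8 CPM and *Tlr7* at 26.6 CPM (21.4 to 32.8), while *Tlr13* had 3 UMIs (0.91 CPM) and *Tlr8* 4 UMIs (1.21 CPM). The 72 cells that remained of the *Cacna1e* cluster still had 77.9 CPM (51.8 to 113) of *Tlr4* and 64.0 CPM (40.6 to 96.0) of *Tlr7*, where the 448 cells of the *Igkc* cluster had 14.6 and 22.1 CPM. T cell or natural killer-like cells kept *Tlr1* at 13.9 CPM and *Myd88* at 15.8 CPM, and their other receptors were at 7.76 CPM or less. In stromal-like cells *Tlr4* stayed at 73.8 CPM (64.8 to 83.7), *Tlr2* at 15.3 CPM and *Tlr3* at 9.80 CPM, with 1 UMI each of *Tlr1*, *Tlr8* and *Tlr13*. The *Ccl22* cluster kept *Tlr3* at 152 CPM (131 to 176) in 63 cells. It had 1 UMI of *Tlr7* and 0 of *Tlr8*, the latter with an upper bound of 3.07 CPM.

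**Figure D2:**
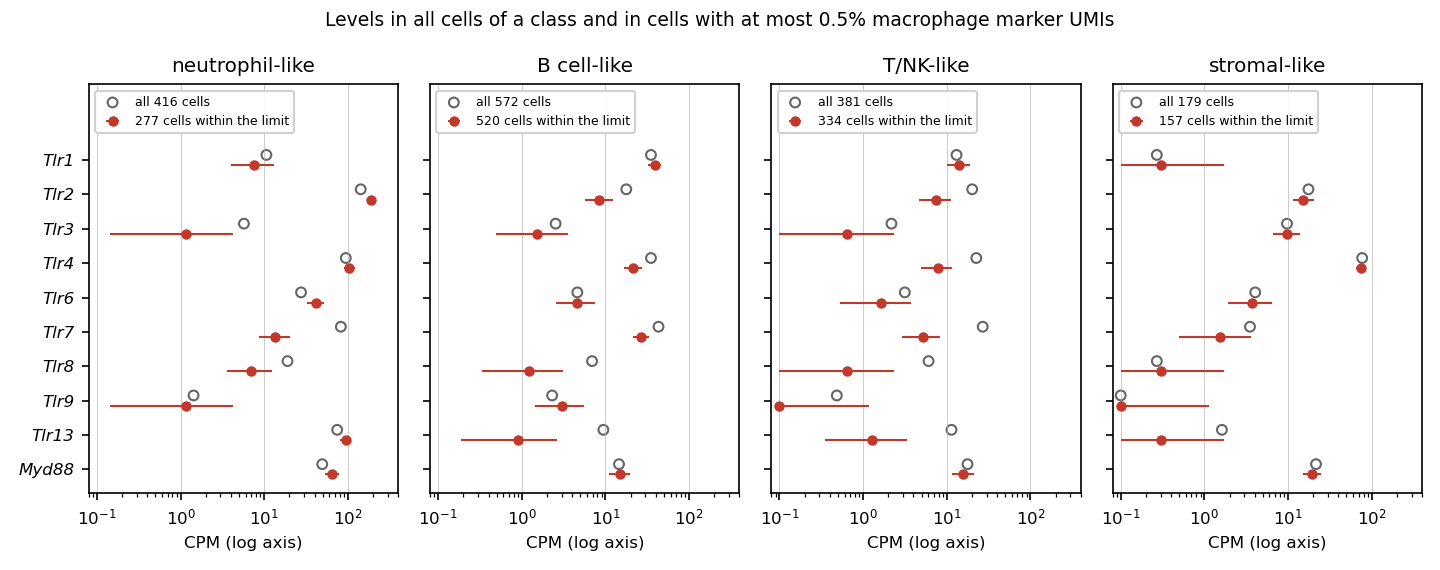
Level of each gene (CPM on a log axis) in 4 classes outside the myeloid compartment, for all cells (open circles) and for cells with at most 0.5% macrophage marker UMIs (red points with 95% Poisson intervals, values of 0 drawn at 0.1). In neutrophil-like cells *Tlr7* moved from 82.5 to 13.5 CPM while *Tlr2*, *Tlr6*, *Tlr13* and *Myd88* did not fall, and in stromal-like cells *Tlr4* stayed above 70 CPM.

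For the question of how pre-treatment with β-glucan relates to the receptors in arthritic synovium, the libraries were compared in the main myeloid compartment. *Tlr13* and *Tlr4* were higher in the β-glucan library by more than 1.2-fold, and of the other genes 7 were higher by less and 1, *Tlr9*, was lower. *Tlr13* had 51.0 CPM with β-glucan and 38.9 CPM with PBS (log2 ratio 0.39, interval 0.31 to 0.47). *Tlr4* had 93.9 and 77.2 CPM (log2 ratio 0.28, interval 0.23 to 0.34). The 9 genes whose mean reached 5 CPM were all higher in the β-glucan library, where 57.7% of the 9811 genes measured at that level were higher, and 2 of the 9 were past 1.2-fold higher, where 6.86% of all genes were. *Tlr9*, with 1.05 and 1.32 CPM, was past 1.2-fold lower (log2 ratio -0.33, interval -0.81 to 0.16), as were 4.47% of genes with at least 5 CPM, a level it did not reach.

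The remaining log2 ratios were 0.21 (0.01 to 0.42) for *Tlr1*, 0.15 (0.09 to 0.20) for *Tlr2* and 0.23 (0.07 to 0.40) for *Tlr3*. They were 0.15 (-0.04 to 0.33) for *Tlr6*, 0.17 (0.12 to 0.22) for *Tlr7*, 0.16 (0.05 to 0.27) for *Tlr8* and 0.01 (-0.09 to 0.11) for *Myd88*. The interval lay above 0 for 7 of the 10 genes, against 33.0% of the 9811 genes measured, and below 0 for none, against 21.6%. The median over the 10 genes was 0.17, and the median over all genes measured was 0.03. The adaptor had 25.1 and 24.9 CPM in the 2 libraries.

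These ratios changed when the makeup of the compartment was held equal. The *Retnla* cluster, where *Tlr7*, *Tlr8* and *Tlr13* were lowest among the 8 larger clusters of the compartment, made up 6.32% of the compartment's β-glucan cells and 14.5% of its PBS cells. When each cluster was given the same weight in both libraries, by its share of all compartment UMIs, the log2 ratio became -0.01 for *Tlr7*, 0.00 for *Tlr8*, 0.03 for *Tlr2*, 0.21 for *Tlr13* and 0.22 for *Tlr4*, and none of the 10 genes was past 1.2-fold. The share of all genes past 1.2-fold with these weights is not given. The median share of UMIs from genes spanning at least 100 kb was also higher in the β-glucan library (19.8% against 17.9%), and genes of that span had a median log2 ratio of 0.14 against -0.06 for genes under 10 kb. In cells paired between the libraries on this share within each cluster, *Tlr4* was at 0.14, *Tlr13* at 0.21, *Tlr7* at -0.08, *Tlr8* at -0.03 and *Tlr3* at -0.02. The later annotation used for spans gives *Tlr4* 104.2 kb and *Tlr6* 94.8 kb, and the other 8 genes between 4.29 and 26.8 kb. Of all genes measured that span at least 100 kb, 21.1% were past 1.2-fold higher in the summed UMIs.

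**Figure D3:**
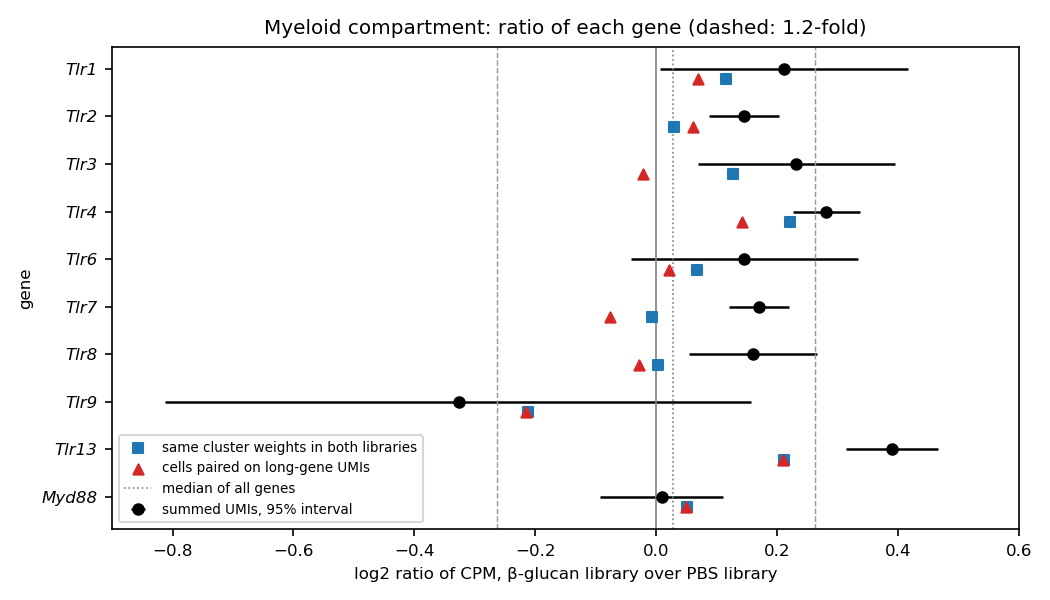
Log2 ratio of CPM between the β-glucan and the PBS library in the main myeloid compartment for each gene (black, with 95% intervals), and the same with equal cluster weights in both libraries (blue squares) and with cells paired by their content of long-gene UMIs (red triangles). *Tlr13* and *Tlr4* lie past the dashed line of 1.2-fold in the summed UMIs only, at 0.39 and 0.28, and *Tlr7* moves from 0.17 to -0.01 and -0.08.

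Within the 8 clusters of the compartment with at least 100 cells per library, *Tlr13* was higher with β-glucan in 8 of 8, with log2 ratios from 0.03 in *Ldlrad3* to 0.45 in *Retnla*, and 4 of the intervals lay above 0. *Tlr4* was higher in 7 of 8 clusters and 5 intervals lay above 0. All 8 clusters come from the same 2 libraries and are no replicates of each other. The shares of all genes with such counts of clusters or such intervals are not given, here and in the next paragraphs. The counts are therefore no result about these genes. The largest difference of *Tlr4* was in the *Vsig4* cluster (99.0 against 71.8 CPM, log2 ratio 0.46, interval 0.32 to 0.61). In the *Retnla* cluster it was lower with β-glucan, at 51.2 against 64.5 CPM (log2 ratio -0.33, interval -0.52 to -0.15).

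*Tlr7* was split over the clusters. It was lower with β-glucan in the *Ednrb* cluster (154 against 183 CPM, log2 ratio -0.25, interval -0.34 to -0.15) and higher in the *Spp1* cluster (113 against 97.2 CPM, 0.22, interval 0.09 to 0.35), the *Vsig4* cluster (0.17, interval 0.03 to 0.30) and the *Retnla* cluster (0.41, interval 0.14 to 0.68). In the *Gpnmb* cluster, where it was highest, its log2 ratio was -0.02 (-0.14 to 0.11). *Tlr8*, its neighbour on the X chromosome, had no interval on either side of 0 in these clusters, with ratios from -0.27 in *H2-Aa* to 0.34 in *Ldlrad3*.

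The intervals of *Tlr2* lay above 0 in 2 clusters. In the *H2-Aa* cluster, which expresses genes of antigen presentation, it had 95.7 CPM with β-glucan and 63.1 CPM with PBS (log2 ratio 0.60, interval 0.42 to 0.78), and in the low-depth *Ldlrad3* cluster 81.3 and 47.4 CPM (0.78, interval 0.28 to 1.30). In the other 6 clusters its ratio ran from -0.13 to 0.08 and each interval held 0. The *Ldlrad3* cluster also differed in its median share of UMIs from genes spanning at least 100 kb. This share was 31.8% with β-glucan and 31.4% with PBS, and at most 21.5% in any other cluster of the compartment. The part of this in the cluster's ratios was not tested. The interval of *Myd88* was above 0 only in the *Retnla* cluster, with 33.6 against 27.0 CPM (0.32, interval 0.07 to 0.56). For *Tlr6* the *Spp1* cluster (0.63, interval 0.10 to 1.19) and the *Retnla* cluster (0.67, interval 0.07 to 1.28) were above 0. *Tlr1* was higher in the *Retnla* cluster (33 and 36 UMIs, 0.84, interval 0.12 to 1.57) and lower in the *Ldlrad3* cluster (9 and 15 UMIs, -1.32, interval -2.70 to -0.04). *Tlr9* was lower in the *Gpnmb* cluster, from 10 and 18 UMIs (-1.21, interval -2.49 to -0.02). No interval of *Tlr3* lay on either side of 0, with ratios between -0.07 and 0.19.

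**Figure D4:**
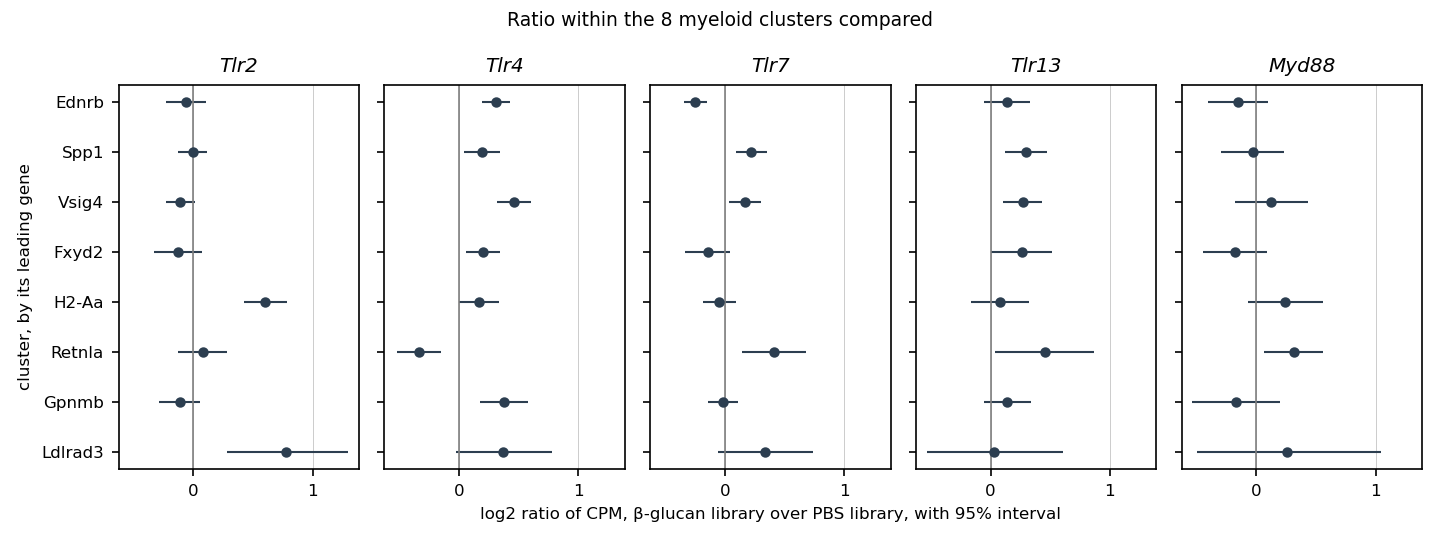
Log2 ratio of CPM between the β-glucan and the PBS library with 95% intervals (horizontal axis) in the 8 clusters of the compartment with at least 100 cells per library (rows), for 5 genes. *Tlr13* lies above 0 in 8 of 8 clusters and *Tlr4* in all but the *Retnla* cluster (-0.33). *Tlr2* has its highest ratios in the *Ldlrad3* (0.78) and *H2-Aa* (0.60) clusters, and *Tlr7* is on both sides of 0. All clusters come from the same libraries, and the share of all genes with such ratios is not given.

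Outside the compartment, neutrophil-like, B cell-like and T cell or natural killer-like cells had at least 100 cells in each library. In neutrophil-like cells 3 of the 8 genes with at least 5 CPM were past 1.2-fold higher with β-glucan and 2 (*Tlr13* and *Myd88*) were past it lower, where 40.8% of the 9791 genes measured there were past it higher and 1959 of them lower. The count of higher genes was near that background. *Tlr7* had 98.8 CPM with β-glucan and 43.9 CPM with PBS (log2 ratio 1.17, interval 0.78 to 1.58), and *Tlr2* (135 and 161 CPM, log2 ratio -0.26) and *Myd88* (43.6 and 63.2 CPM, -0.53) were lower with β-glucan with intervals below 0. The sum of macrophage markers in these cells also differed between the libraries, 13864 against 7034 CPM. Within the limit of 0.5% macrophage marker UMIs that sum was 904 and 1185 CPM. There *Tlr7* had 14.6 and 12.6 CPM (log2 ratio 0.21, interval -1.11 to 1.52). The ratio was -0.10 (-0.43 to 0.23) for *Tlr2* and -0.20 (-0.78 to 0.37) for *Myd88*. For *Tlr13* it was 0.21 (-0.26 to 0.67) within the limit, with 102 and 88.4 CPM. *Tlr6* was at 0.78 (0.07 to 1.51) within the limit, with 54.4 and 31.6 CPM, against 0.01 in all neutrophil-like cells. *Tlr3* had 25 and 3 UMIs in all of them (1.82, interval 0.11 to 4.19) and 1 UMI in each library within the limit. Without the cells of highest doublet score, *Tlr7* had 258 and 5 UMIs (3.91, interval 2.67 to 5.55) and the macrophage markers 13457 and 1100 CPM. The part of macrophage RNA in these differences was not tested.

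Of the 7 genes with at least 5 CPM in B cell-like cells, 4 were past 1.2-fold higher and 0 lower, against 30.2% and 17.9% of all genes. The intervals of *Tlr4* (45.5 and 20.4 CPM, log2 ratio 1.16, interval 0.61 to 1.73) and *Tlr13* (36 and 5 UMIs, 2.37, interval 1.01 to 4.07) lay above 0. For B cell-like and for T cell or natural killer-like cells, the share of all genes with such an interval is not given. The B cell-like sum pools the *Igkc* cluster with the *Cacna1e* cluster, which held 79 of the 327 and 34 of the 245 cells and had 81.5 and 42.5 CPM of *Tlr4* (71 and 13 UMIs). The *Igkc* cluster alone had 26.5 and 15.9 CPM of *Tlr4* (44 and 24 UMIs, log2 ratio 0.74, interval -0.01 to 1.52). Without the cells of highest doublet score, *Tlr4* had 14.8 and 15.8 CPM and *Tlr13* 2 and 1 UMIs in the libraries, and within the limit on macrophage markers *Tlr4* had 50 and 21 UMIs (1.05, interval 0.29 to 1.86) and *Tlr13* 3 and 0. *Tlr1*, whose own highest cluster was the *Igkc* cluster, had a ratio of 0.26 (-0.23 to 0.76) in B cell-like cells. In T cell or natural killer-like cells 4 of the 7 genes with at least 5 CPM were past 1.2-fold higher and 0 lower, against 27.3% and 21.3% of all genes. There *Tlr2* had 26.8 and 13.0 CPM and *Tlr4* 27.7 and 17.1 CPM. Both intervals lay above 0, as did those of *Tlr3* (8 and 1 UMIs), *Tlr6* (11 and 2 UMIs) and *Tlr8* (19 and 6 UMIs). The class pools the *Il23r* cluster (117 and 124 cells) and the *Gzma* cluster (85 and 55 cells). In these clusters *Tlr4* was at 0.60 (-0.20 to 1.42) and 0.81 (-0.32 to 2.07). *Tlr2* was at 0.86 (0.05 to 1.69) and 2.11 (0.38 to 4.49). Within the limit on macrophage markers, *Tlr2* had 10.2 and 4.92 CPM in the class with an interval that held 0. *Tlr4* had 12.3 and 3.69 CPM with an interval above 0. The macrophage markers summed to 4371 and 3399 CPM in all of these cells and to 473 and 335 CPM within the limit. Without the cells of highest doublet score they summed to 2196 and 291 CPM, and *Tlr2* had 23 and 3 UMIs (log2 ratio 2.90, interval 1.17 to 5.27) and *Tlr4* 23 and 6 UMIs (1.90, interval 0.56 to 3.48). The part of macrophage RNA in these differences was not tested either.

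The other genes of the pathway, from lists drawn up by role, were described in the main myeloid compartment by their summed UMIs. Their ratios are not given within clusters or with equal cluster weights. The part of the compartment's makeup in these ratios was not tested. Of 83 genes, 68 had at least 5 CPM, 40 of these were higher with β-glucan, 10 were past 1.2-fold higher and 9 past it lower, with a median log2 ratio of 0.04. Of all genes at that level 57.7% were higher, 6.86% past 1.2-fold higher and 4.47% past it lower, and the counts by list cover genes at the same level. Among co-receptors and genes for handling of ligands, 1 of 7 was past 1.2-fold higher and 1 lower. *Cd180*, which encodes a homologue of TLR4, was at 0.28 and the fatty acid and lipoprotein receptor *Cd36* at 0.25, while *Cd14*, the co-receptor for lipopolysaccharide, had 326 CPM against 400.2 CPM (log2 ratio -0.29) and the integrin gene *Itgb2* was at -0.10.

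None of the 12 genes for trafficking and processing of endosomal receptors was past 1.2-fold higher and 1 was lower, the protease gene *Ctsk* at -0.37. *Tasl*, an adaptor of endosomal receptors, was at 0.19, the protease gene *Lgmn* at 0.17 and the chaperone gene *Hsp90b1* at -0.12. Adaptors and proximal kinases had 2 of 20 genes past 1.2-fold higher and 0 lower. They were *Pik3ap1*, an adaptor between the receptors and phosphoinositide 3-kinase, with 167 against 124 CPM (0.43), and the kinase gene *Ikbke* (0.33), and the lowest were *Ube2n* (-0.12) and *Traf3* (-0.09). The median over this list was 0.08.

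Inhibitors of the pathway had 0 of 10 past 1.2-fold higher and 4 lower (*Nfkbia*, *Tnip3*, *Dusp1* and *Tnfaip3*), beside 6.86% and 4.47% of all genes. *Nfkbia*, which encodes the inhibitor of NF-κB and is itself induced by it, had 136 CPM with β-glucan and 209 CPM with PBS (log2 ratio -0.63, interval -0.67 to -0.59), and *Tnip3* was at -0.56. The highest were *Rnf216* (0.14) and *Otulin* (0.12). Among transcription factors 2 of 11 were past 1.2-fold higher, *Irf8* (0.31) and *Irf7* (0.27), and 1 was lower, *Irf1* (-0.44), followed by the NF-κB subunit gene *Rel* (-0.26).

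Of the 16 genes known to be induced by these receptors, 7 had at least 5 CPM, and all 7 were past 1.2-fold, 5 higher and 2 lower, beside 6.86% and 4.47% of all genes. The chemokine genes *Ccl5* (7.82 against 5.20 CPM, log2 ratio 0.59) and *Ccl3* (0.40) were highest, and *Cxcl2* (71.3 against 96.0 CPM, -0.43) and *Tnf* (26.1 against 34.3 CPM, -0.40) were lowest. The median over these 7 genes was 0.30.

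**Figure D5:**
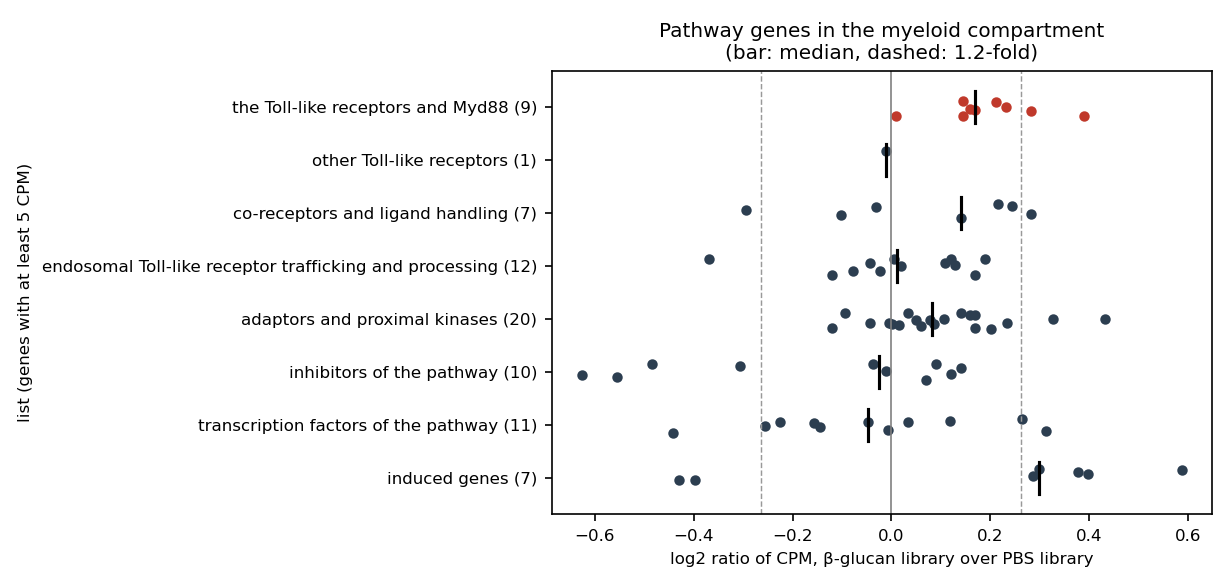
Log2 ratio of CPM between the β-glucan and the PBS library in the main myeloid compartment (horizontal axis) for the 9 receptor and adaptor genes with at least 5 CPM (red) and for the 68 pathway genes at that level (dark points, by list with the number of genes), with the median as a bar. The 9 genes lie between 0.01 and 0.39, while 4 of 10 inhibitors lie past 1.2-fold lower, as do 4.47% of all genes. All ratios are of UMIs summed over the compartment, without equal cluster weights.

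Of the 3 mouse Toll-like receptors that are no part of the 10 genes, *Tlr5*, the receptor for flagellin, had 13.5 CPM with β-glucan and 13.6 CPM with PBS in the compartment (log2 ratio -0.01, interval -0.15 to 0.13). It was highest in the *Ednrb* cluster at 38.4 CPM (35.8 to 41.2), the cluster that also led for *Tlr4*. *Tlr11* and *Tlr12*, which bind profilin of protozoa, were below 5 CPM in the compartment and highest in the *Ccl22* cluster, at 25.3 CPM (17.8 to 34.9) and 6.15 CPM (2.81 to 11.7), where *Tlr3* was highest too.

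Genes whose pattern over the 18 clusters was most like each receptor's were taken from the 10895 genes with at least 20 CPM in any cluster, by Pearson's r of log2(CPM + 1). *Tlr8* was most like the macrophage genes *Adgre1* (r = 0.97) and *Csf1r* (0.97), with *Cacna1d* (0.96), and *Tlr13* most like *Slc11a1* (0.96), *Adgre1* (0.95) and *Abcc3* (0.95). *Tlr7* was most like *Slc37a2* (0.97), *Rreb1* (0.96) and *Il10rb* (0.95). For *Tlr2* these were *Pxn* (0.92), *Adap2os* (0.91) and *Slc11a1* (0.91), and for *Tlr4* the lysosomal gene *Lamp2* (0.95), *Plod3* (0.94) and *Gda* (0.94). For *Tlr6* these were *Gm16556* (0.93), *Oasl2* (0.89) and *Gm34589* (0.89), for *Tlr1* they were *Slfn8* (0.88), *Mtmr3* (0.86) and *Xpo6* (0.85), and for *Tlr3* they were *Txndc15* (0.87), *Ppt1* (0.86) and *Ifi211* (0.86). For *Myd88* they were *R3hdm4* (0.83), *Slc35a5* (0.72) and *Smim3* (0.70), and for *Tlr9* they were *Copg2* (0.78), *Fgd2* (0.77) and *Ebi3* (0.74). The pattern of *Tlr9* rests on 173 UMIs over all cells kept, with 0 in the stromal-like and *Gzma* clusters. Its likeness to other genes is therefore limited by counting error near the limit of detection.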

How the data were processed

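The authors deposited counts of UMIs per gene and cell barcode, without normalization, made with Cell Ranger 7.0.0 on GRCm39 and the genes of Ensembl 104, after its cell calling and before any filter on cells. The submitters' notes also name mm10. Whether reads in introns were counted is not given in the sources used here. Barcodes with 500 or more genes and no more than 10% mitochondrial UMIs were clustered without integration, using sctransform 0.4.2 and Seurat 5.3.0 under R 4.3.3 (3000 variable genes, 30 principal components, 20 neighbours, Louvain resolution 0.7). The 45 variable genes that are members or pathway genes were left out of the components. A cluster was named for the cell type with most fixed markers among its 10 leading genes (at least 50 CPM and in at least 25% of cells), then by mean score, if at least 3 markers were each detected in 25% of its cells.

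UMIs were summed per cluster and library and divided by the total (CPM). Log2 ratios carry exact conditional intervals, a call means a ratio of at least 1.2 or at most 1/1.2, and the background is every gene whose mean was 5 CPM or more. No p-value was computed, since each group is 1 library. Shares were repeated after thinning cells to 5000 UMIs, which left out 683 β-glucan and 542 PBS cells. Scrublet in scanpy 1.11.5 marked 0 and 2 cells, and its calls were not used. No doublets were removed, and whether its scores rank doublets was not tested, while leaving out the 260 and 166 cells of highest score was an alternative. Python 3.11.15, numpy 2.4.6, scipy 1.17.1, pandas 2.3.3 and, for TMM scaling, edgeR 4.0.16 were used. The code for the ratio and its interval was tested on simulated Poisson counts, the model that the interval assumes. These held no variation between cells, mice or libraries, so the test covers counting error only. Of the 32524 genes, 31870 were found by identifier in the annotation (GENCODE, a later release) used for positions, spans and transcripts. The genes and lists were chosen with earlier results of these data known. Named genes were all 10, the 2 highest and 2 lowest of each pathway list, all other Toll-like receptors, and the 3 genes most like each of the 10 over the clusters. Alternatives were other filters, totals, scalings, weights, clusterings, depths and pairings. 4 were added after the data had been seen: leaving out the *Retnla* cluster, equal cluster weights by UMIs in both libraries, and, outside the compartment, leaving out high doublet scores and the limit of 0.5% macrophage marker UMIs.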

Additional observations from a re-analysis of the deposited data

Results flagged for a closer look

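For 5 of the genes the log2 ratio of β-glucan over PBS had an interval above 0 in 1 cluster or class and below 0 in another. The difference between the 2 ratios was not tested in any of these pairs. The share of all genes with such opposite intervals is not given, so the count is no result about these genes. In the compartment alone 33.0% of the 9811 genes measured had an interval above 0 and 21.6% below 0. *Tlr1* was at -1.32 in the *Ldlrad3* cluster and at 0.84 in the *Retnla* cluster. *Tlr2* was at -0.26 in neutrophil-like cells and at 0.60 in the *H2-Aa* cluster. *Tlr4* was at -0.33 in the *Retnla* cluster and at 1.16 in B cell-like cells, but at 0.74 (interval -0.01 to 1.52) in the *Igkc* cluster alone and at -0.10 in B cell-like cells without those of highest doublet score. *Tlr7* was at -0.25 in the *Ednrb* cluster and at 1.17 in neutrophil-like cells. *Myd88* was at -0.53 in neutrophil-like cells and at 0.32 in the *Retnla* cluster. In neutrophil-like cells within the limit of 0.5% macrophage marker UMIs, *Tlr2* was at -0.10, *Tlr7* at 0.21 and *Myd88* at -0.20. Each of these intervals held 0. Macrophage markers also differed between the libraries in neutrophil-like cells (13864 against 7034 CPM) and in B cell-like cells (4959 against 3238 CPM).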

How the results depend on the processing

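With 1 library per group, neither a replicate left out nor a block can be tried. No paired analysis was possible because each group is 1 library. Of 16 alternatives for the compartment, the number of genes higher with β-glucan was 6 to 9, against 9 in the report. The number past 1.2-fold, 3 in the report with *Tlr9*, was 1 in all barcodes without a filter and with equal weight per cluster, 5 in all cells of the sort, 0 with cells paired on long-gene UMIs and 0 with equal cluster weights by UMIs. The shares of all genes higher or past 1.2-fold under these settings are not given. The number past the fold was 9 at a fold of 1.1 and 0 at 1.5, where 35.7% and 1.34% of all genes were past the fold in either direction, and 17.5% were past 1.2-fold among genes with at least 1 CPM, against 11.3% in the report. Of the ratios whose interval held only values above 0 in the report, those that changed sign were *Tlr1* with equal weight per cluster (-0.10), *Tlr3*, *Tlr7* and *Tlr8* with cells paired on long-gene UMIs (-0.021, -0.077 and -0.029), *Tlr7* with equal cluster weights by UMIs (-0.0063), and *Tlr4* in B cell-like cells without the highest doublet scores (-0.10). *Myd88*, at 0.01 with an interval that held 0, was between -0.07 and 0.20 and below 0 in 5 of the 16. *Tlr13* ranged from 0.16 to 0.40 and *Tlr4* from 0.14 to 0.35, above 0 in each of the 16. Without the *Retnla* cluster, *Tlr7* was at 0.01, *Tlr8* at 0.03 and *Tlr13* at 0.24. The cause of these changes was not tested. Without the highest doublet scores, *Tlr7* in neutrophil-like cells was at 3.91. Of 58 repeats of a gene's highest class level under other clusterings and filters, 54 stayed within its interval. *Tlr9* was limited by its 149 UMIs in the compartment.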

Other observations

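In the main myeloid compartment, *Il12b*, which encodes a subunit of interleukin-12 and interleukin-23, gave 115 UMIs after β-glucan against 5 after PBS (1.76 and 0.083 CPM, log2 ratio 4.41, interval 3.15 to 6.06), and *Ptgs2*, the inducible cyclooxygenase, had 268 and 116 UMIs (log2 ratio 1.096, interval 0.78 to 1.42). *Socs1*, an inhibitor of cytokine signalling, had 70 and 177 UMIs (log2 ratio -1.45, interval -1.87 to -1.04). These 3 genes of the pathway lists lay below 5 CPM and were chosen after their values were seen. *Cxcl1*, on the list of induced genes like *Il12b* and *Ptgs2* and also under 5 CPM, was instead lower after β-glucan. Its log2 ratio was -1.07 (interval -1.42 to -0.72), from counts of 105 against 204. The share of all genes below 5 CPM with such ratios is not given, so these picks are no result about the pathway. In the 1500 and 1207 barcodes that failed the filter on cells, *Tlr4* had 75.6 and 84.7 CPM and *Tlr13* 27.0 and 24.6 CPM with β-glucan and PBS, and each pair of intervals overlapped.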
